A study of Danio rerio with 2 samples.

Results

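The genes described are the subunits, assembly factors and regulators of the proteasome, and the subunits of the COP9 signalosome. They are all rows of the deposited table whose symbol begins with psma to psmg or with cops followed by a digit, rows of several joined symbols left out. This gave 57 of 14428 rows. RNA was measured in 2 libraries from zebrafish (Danio rerio) embryos that all carried the transgene crestin_1kb:EGFP, in which a fragment of crestin, a marker gene of neural crest cells, controls EGFP, a green fluorescent protein. Embryos at 15 SS were dissociated and sorted by fluorescence. The EGFP-positive library came from about 5500 sorted cells, which the labels call crestin-positive neural crest cells. The EGFP-negative library came from about 100000 cells without the signal, that is, from the other tissues of the same kind of embryo and any crest cells that lacked EGFP. No value has a replicate, so no difference was tested, and each is a comparison of these 2 libraries. In such bulk samples, fewer cells of a type and less RNA per cell cannot be told apart.

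The proteasome is the protease that degrades proteins tagged with ubiquitin. Its barrel, the 20S core particle, is built of stacked alpha and beta rings. The alpha rings gate the entry and some beta subunits carry the active sites. The 19S regulatory particle caps the barrel. Its base holds a ring of ATPases that unfold the substrate, and its lid holds the enzyme that removes the ubiquitin chain. The COP9 signalosome is built like the lid, and it removes the ubiquitin-like protein Nedd8 from cullins, the scaffolds of a large family of ubiquitin ligases. Dividing eukaryotic cells need the proteasome, and an intact particle of either complex holds its subunits in fixed proportions.

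The sort was seen in the markers of the labelled cells. All 5 neural crest markers were at least 2-fold higher in the EGFP-positive library, with a summed level of 725.5 FPKM there and 88.8 FPKM in the EGFP-negative library. All 5 skeletal muscle markers were lower, with sums of 46.5 and 207 FPKM in EGFP-positive and EGFP-negative cells. Of 4 blood and vessel markers 3 were lower, with sums of 36.3 FPKM in EGFP-positive and 181 FPKM in EGFP-negative cells. The 3 pronephros markers were higher, with sums of 129 FPKM in EGFP-positive and 44.0 FPKM in EGFP-negative cells. The hatching gland markers he1a and cd63 summed to 1494 FPKM in EGFP-positive and 500.5 FPKM in EGFP-negative cells, and he1a was at least 2-fold higher. None of the 3 epidermal markers was 2-fold apart, and of 3 neural markers only sox2 was, at 6.24 FPKM in EGFP-positive and 15.4 FPKM in EGFP-negative cells. No marker of these lists was at 0 in either library. The part of these other cell types in the values below was not tested.

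Of the 57 rows, 50 reached 1 FPKM (fragments mapped to a gene, scaled to its length and to the size of the library) in at least 1 library, and 7 were listed at 0 in both. Differences are given as log2(FPKM + 1) in the EGFP-positive minus the EGFP-negative library, and a gene is called higher or lower from a size of 2-fold on that scale. Of the 50 rows, 3 were called higher, 10 were called lower and 37 lay between. Among all 9685 genes at 1 FPKM or more in either library, 22.9% were called higher and 26.5% lower. With this filter and pseudocount every considered row at 0 in 1 library is called, and 6 of the 13 calls are such rows: psmd10, psmf1, psmg3, cops8, psmc3ip and psme2. Of the 44 members above 0 in both libraries 2 were called higher, psmg1 and psmg2, and 5 lower, psmc1b, psmc5, psmd8, psmd9 and cops6. In the same restriction 17.8% of 7449 genes were called higher and 16.5% lower. The members are more abundant than most genes, with a median of 82.7 FPKM in EGFP-positive and 82.6 FPKM in EGFP-negative cells, against 16.2 and 17.0 FPKM in the same libraries for all genes. Among rows with a mean over both libraries of at least 20 FPKM, a limit chosen after the data had been seen, 2 of 43 members were higher and 7 lower. All genes above that limit were called higher in 17.3% and lower in 17.4% of cases.

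The median difference of the 50 rows was 0.12, beside -0.04 for all genes. It turned to -0.05 when both libraries were rescaled to one sum without rn7sk, the most abundant RNA, which moved the median of all genes by -0.16 to -0.21. The sign of the members' median thus depends on the scale. On both scales it lay 0.16 above the median of all genes.

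**Figure D1:**
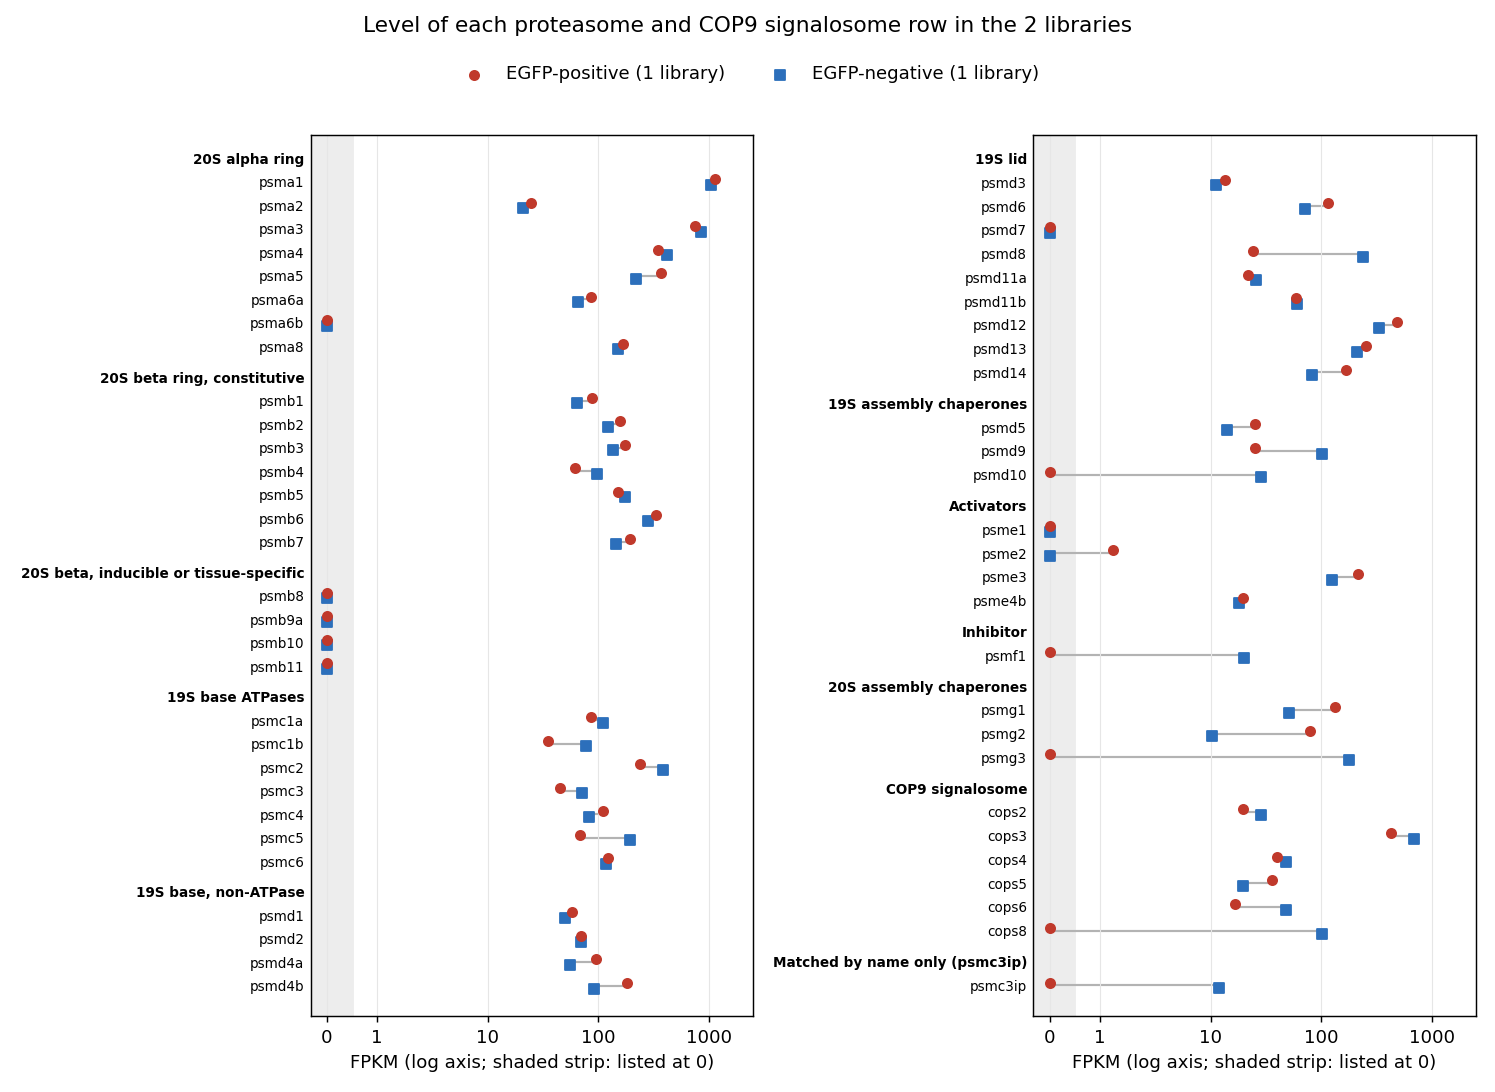
Level of all 57 rows in FPKM on a log axis, as circles for the EGFP-positive and squares for the EGFP-negative library, grouped by subcomplex; a value of 0 stands in the shaded strip. The circles and squares of the 20S rings lie close together, while psmd8, psmd10, psmf1, psmg3 and cops8 show long gaps.

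Most genes of the 20S core lay close together in both libraries. None of the 14 measured alpha and constitutive beta genes that match the rule was 2-fold apart. Of all genes above 0 in both libraries, 65.7% were not 2-fold apart either. Of the 14, 10 had a positive and 4 a negative difference, and the median was 0.22. Of the alpha ring, psma1 was the most abundant at 1137 FPKM in EGFP-positive and 1054 FPKM in EGFP-negative cells. Psma3 followed with 749.6 FPKM in EGFP-positive and 855 FPKM in EGFP-negative cells. Both differences were under 0.20 in size on the log2 scale.

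The alpha gene furthest apart was psma5, with 369.6 FPKM in EGFP-positive and 218 FPKM in EGFP-negative cells, a 1.70-fold ratio of FPKM. Psma4 had 351 FPKM in EGFP-positive and 421 FPKM in EGFP-negative cells. Psma8, whose mammalian counterpart is a germ-line form of an alpha subunit, had 168 FPKM in EGFP-positive and 152 FPKM in EGFP-negative cells. No row and no reference gene is named psma7, and a germ-line role of the zebrafish gene was not tested. The alpha genes keep the gate and docking surface of the barrel. The order of their levels was the same in both libraries except that psma5 and psma4 exchanged places. The least abundant of those above 0, psma2, had 24.5 FPKM in EGFP-positive and 20.9 FPKM in EGFP-negative cells. Psma1 therefore exceeded psma2 by 46.4-fold in EGFP-positive and by 50.4-fold in EGFP-negative cells, although FPKM is scaled to length and the subunits are present in equal number in the ring. Psma2 is also the older name of a pair of loci in the reference table, so how the reads were shared among them is not known. One of the pair, psma2b, has a row under the older name si:rp71-45k5.4, which the rule does not take and which was looked up after the members' values had been seen. It had 11.3 FPKM in EGFP-positive and 3.99 FPKM in EGFP-negative cells, a difference of 1.30 on the log2(FPKM + 1) scale that passes the call, unlike the 14 genes above. Psma6a had 86.0 FPKM in EGFP-positive and 65.1 FPKM in EGFP-negative cells, while its paralogue psma6b was listed at 0 in both.

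The beta genes were more even. The trypsin-like site is carried by the product of psmb7, which had 194 FPKM in EGFP-positive and 145 FPKM in EGFP-negative cells. The caspase-like subunit gene psmb6 was the most abundant beta gene, at 332 FPKM in EGFP-positive and 284 FPKM in EGFP-negative cells. The chymotrypsin-like subunit gene psmb5, the main target of proteasome inhibitors used as drugs, had 151 FPKM in EGFP-positive and 174 FPKM in EGFP-negative cells. None of the catalytic genes thus differed by 1.5-fold. The structural genes psmb1, psmb2 and psmb3 had ratios of FPKM between 1.28 and 1.36. Psmb4 stood furthest apart, on the lower side, with 61.5 FPKM in EGFP-positive and 98.3 FPKM in EGFP-negative cells. The highest beta gene exceeded the lowest by 5.4-fold in EGFP-positive and 4.43-fold in EGFP-negative cells.

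The median difference was 0.14 for the alpha and 0.35 for the constitutive beta genes, and without rn7sk in the scale it was -0.03 and 0.18, so the sign of the alpha median depends on the scale. Across the 14 genes Spearman's rho between the levels in the libraries was 0.91, a description over genes that share both libraries. Over all genes above 0 in both libraries rho was 0.80. It was 0.63 for the 19S base and lid and 0.99 for cytosolic ribosomal proteins.

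The inducible and tissue-specific beta genes were all listed at 0 in both libraries. They were psmb8, psmb9a, psmb10 and psmb11. In mammals the products of the first 3 replace the constitutive catalytic subunits in immune cells and after interferon, and that of psmb11 does so in the thymus. Psmb8, psmb10 and psmb11 are older names of psmb8a, psmb13a and psmb12, and psmb10 is also the current symbol of another locus. In the RefSeq gene table of assembly GRCz12tu, psmb13a, psmb8a, psmb12 and psmb9a stand next to each other. A 0 can be a lost estimate, and 31.4% of all rows in the table were 0 in both libraries, so absence of the transcripts cannot be read from it.

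Of the 7 ATPase genes of the 19S base, 2 were called lower and none higher. The share called lower was 28.6%, beside 26.5% of all genes. All 7 were above 0 in both libraries, and of all such genes 16.5% were called lower. Of the 7, 5 had a negative difference, with a median of -0.63 on the deposited scale and -0.81 without rn7sk in the scale. Psmc5, an ATPase of the unfolding ring, had 68.2 FPKM in EGFP-positive and 192 FPKM in EGFP-negative cells, 2.82-fold lower in EGFP-positive cells. Psmc1b, for another ATPase of the ring, had 34.9 FPKM in EGFP-positive and 78.2 FPKM in EGFP-negative cells, 2.24-fold lower. Its paralogue psmc1a had 85.3 FPKM in EGFP-positive and 111 FPKM in EGFP-negative cells. The summed level of both psmc1 genes was 120 FPKM in EGFP-positive and 189.5 FPKM in EGFP-negative cells, so the pair together was less than 2-fold apart. FPKM is scaled to length, so reads shared between genes of unlike length would alter this sum, and this was not tested.

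Psmc2 was the most abundant ATPase gene, with 239 FPKM in EGFP-positive and 387 FPKM in EGFP-negative cells. Psmc3 had 45.4 FPKM in EGFP-positive and 71.0 FPKM in EGFP-negative cells. Both lay on the lower side without reaching 2-fold. On the other side, psmc4 had 111 FPKM in EGFP-positive and 82.0 FPKM in EGFP-negative cells, and psmc6 had 123 and 117 FPKM in EGFP-positive and EGFP-negative cells. The ATPases form a ring with one copy of each, and a direction common to the whole ring was not seen. The difference of psmc6 was 0.07 and turned to -0.10 without rn7sk in the scale, where that of psmc4 stayed positive at 0.26.

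None of the 4 other genes of the base was called, where 65.7% of all genes above 0 in both libraries were not. Psmd1 and psmd2 encode its large scaffold proteins. Psmd1 had 57.7 FPKM in EGFP-positive and 50.4 FPKM in EGFP-negative cells, and psmd2 had 69.2 and 70.4 FPKM in EGFP-positive and EGFP-negative cells. The ubiquitin receptor genes psmd4a and psmd4b were both on the higher side. Psmd4a had 96.1 FPKM in EGFP-positive and 55.5 FPKM in EGFP-negative cells. Psmd4b had 184 FPKM in EGFP-positive and 91.8 FPKM in EGFP-negative cells, a ratio of FPKM of 2.003 that fell just short of the call at 0.99 on the log2(FPKM + 1) scale. Their sum was 280 FPKM in EGFP-positive and 147 FPKM in EGFP-negative cells, a 1.90-fold ratio.

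In the lid, 7 of the 8 measured genes that match the rule were not called, beside 65.7% of all genes above 0 in both libraries. The exception was psmd8, a structural subunit needed to complete the lid, with 24.3 FPKM in EGFP-positive and 241 FPKM in EGFP-negative cells, 9.90-fold lower in EGFP-positive cells. This was the widest gap among the members above 0 in both libraries. The deubiquitinating enzyme gene psmd14 lay at the opposite end, with 167 FPKM in EGFP-positive and 83.3 FPKM in EGFP-negative cells, a ratio of FPKM of 2.004 that also just missed the call at 0.99. Psmd8 thus stood at 0.146 times the level of psmd14 in EGFP-positive and at 2.89 times it in EGFP-negative cells. Psmd7, whose product forms the catalytic pair with that of psmd14 in yeast and mammals, was listed at 0 in both libraries. Why psmd7 is listed at 0 was not tested, and absence of its transcript cannot be read from that value.

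The remaining lid genes encode structural subunits that frame it. Psmd12 was the most abundant, with 487 FPKM in EGFP-positive and 332 FPKM in EGFP-negative cells. Psmd13 had 255.5 FPKM in EGFP-positive and 209.5 FPKM in EGFP-negative cells. Psmd6 had 116 FPKM in EGFP-positive and 71.9 FPKM in EGFP-negative cells. The paralogues psmd11a and psmd11b were nearly level, and their sum was 81.2 FPKM in EGFP-positive and 86.5 FPKM in EGFP-negative cells. Psmd3 was the least abundant at 13.4 FPKM in EGFP-positive and 11.3 FPKM in EGFP-negative cells. The lid's median difference was 0.26, and 0.09 without rn7sk in the scale.

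**Figure D2:**
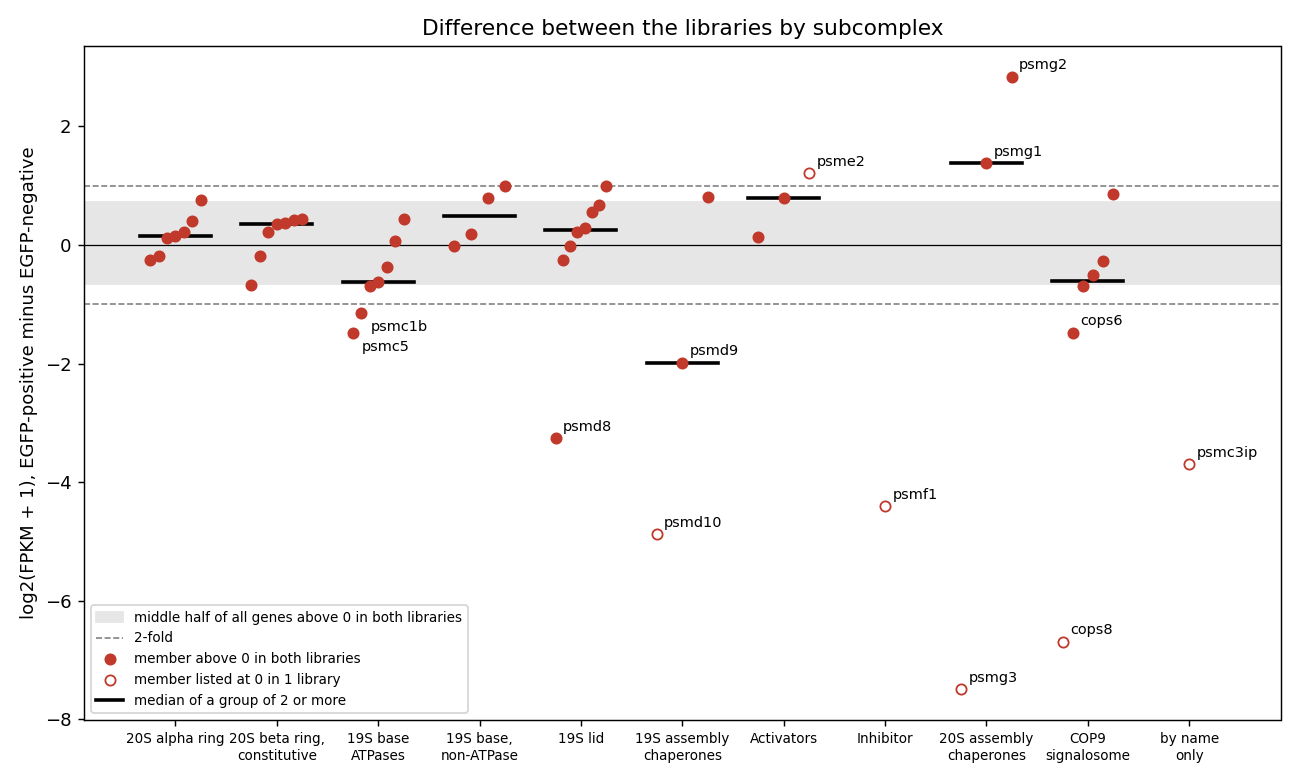
Difference in log2(FPKM + 1), EGFP-positive minus EGFP-negative, of the 50 rows at 1 FPKM or more in either library, by subcomplex; open points are listed at 0 in 1 library, black bars are medians, the band is the interquartile range of all genes above 0 in both libraries, and dashed lines mark 2-fold. All plotted 20S ring genes lie inside the dashed lines, and the genes that are named lie outside them.

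Of 10 measured chaperones, activators and inhibitors 3 were called higher and 4 lower, where 22.9% of all genes were called higher and 26.5% lower. Of these 7 calls, 4 concern genes listed at 0 in 1 library, 3 of them in EGFP-positive and 1 in EGFP-negative cells. Among all considered genes, 13.9% were at 0 in EGFP-positive cells only and 9.22% in EGFP-negative cells only. Of the 6 factors above 0 in both libraries, psmg1 and psmg2 were higher, psmd9 was lower and 3 lay within 2-fold. None of the 33 measured subunits that match the rule in the 20S rings, base and lid was at 0 in 1 library, and 0 of them were called higher and 3 lower. Of all genes above 0 in both libraries, 17.8% were called higher and 16.5% lower. The 10 factors were less abundant, with medians of 22.6 FPKM in EGFP-positive and 24.2 FPKM in EGFP-negative cells, against 116 and 111 FPKM for the 33 subunits in the same libraries. The part of abundance in these calls was not tested.

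The psmg genes encode chaperones that assemble the alpha ring. Psmg1 had 134 FPKM in EGFP-positive and 50.8 FPKM in EGFP-negative cells, 2.64-fold higher. Psmg2, whose product works in a pair with that of psmg1, had 80.2 FPKM in EGFP-positive and 10.4 FPKM in EGFP-negative cells, 7.74-fold higher. Both partners thus lay on the same side. Psmg3, part of another chaperone pair, was listed at 0 in EGFP-positive cells and had 179 FPKM in EGFP-negative cells, so no fold is given. Pomp, a maturation factor of the beta rings that lies outside the rule, had 279 FPKM in EGFP-positive and 274 FPKM in EGFP-negative cells.

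The chaperones of the ATPase ring had no common direction. Psmd9 had 25.3 FPKM in EGFP-positive and 102.9 FPKM in EGFP-negative cells, 4.08-fold lower. Psmd10, also known as gankyrin and described in mammals as an oncoprotein, was listed at 0 in EGFP-positive cells and had 28.4 FPKM in EGFP-negative cells. The third, psmd5, had 25.3 FPKM in EGFP-positive and 13.99 FPKM in EGFP-negative cells.

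Activators open the barrel in place of the 19S particle. Psme3, which encodes a nuclear activator, had 217 FPKM in EGFP-positive and 125 FPKM in EGFP-negative cells, a 1.74-fold ratio. Psme4b, of a large activator linked in mammals to chromatin, had 19.9 FPKM in EGFP-positive and 18.1 FPKM in EGFP-negative cells. The interferon-induced activator genes of mammals were barely measured here. Psme1 was listed at 0 in both libraries, and psme2 had 1.31 FPKM in the EGFP-positive library and was listed at 0 in EGFP-negative cells. Psme2 entered the count only through its value in the EGFP-positive library, so its call as higher followed from the filter. Psmf1, an inhibitor of the 20S core in vitro, was listed at 0 in EGFP-positive cells and had 20.1 FPKM in EGFP-negative cells.

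Of the 6 measured genes of the COP9 signalosome that match the rule, 2 were called lower and none higher, a share of 33.3% beside 26.5% of all genes. Among the 5 above 0 in both libraries 1 was lower, where 16.5% of all such genes were. Of the 6, 5 had a negative difference, and the median was -0.60, or -0.77 without rn7sk in the scale. Cops6, the inactive partner of the catalytic subunit, had 16.7 FPKM in EGFP-positive and 48.3 FPKM in EGFP-negative cells, 2.89-fold lower. Cops8 was listed at 0 in EGFP-positive cells and had 102 FPKM in EGFP-negative cells. Without cops8 the median of the other 5 was -0.51. A pair of subunit genes that the rule does not take for their names was looked up after the members' values had been seen. Gps1 had 24.5 FPKM in EGFP-positive and 26.4 FPKM in EGFP-negative cells and was not called. The row myeov2, an older name of cops9 in the reference table, had 133 FPKM in EGFP-positive cells and was listed at 0 in EGFP-negative cells, which counts as a call as higher. Cops8 and cops9 were thus each at 0 in a different library.

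Cops5, the catalytic subunit that cleaves Nedd8, was alone among the 6 genes that match the rule in having a positive difference. Its level was 36.3 FPKM in EGFP-positive and 19.6 FPKM in EGFP-negative cells, a 1.86-fold ratio that did not reach the call. The level of cops5 was therefore 2.17 times that of cops6 in EGFP-positive and 0.405 times in EGFP-negative cells. Psmd14 is the counterpart of cops5 in the proteasome lid, and it stood at 4.59 times the level of cops5 in EGFP-positive and at 4.26 times in EGFP-negative cells. Cops3 was the most abundant gene of the complex, with 431 FPKM in EGFP-positive and 701 FPKM in EGFP-negative cells. Cops4 had 39.7 FPKM in EGFP-positive and 48.2 FPKM in EGFP-negative cells, and cops2 had 19.7 and 28.4 FPKM in EGFP-positive and EGFP-negative cells. As in the alpha ring, subunits of one complex thus differed widely in level, and cops3 exceeded cops2 by 21.9-fold in EGFP-positive and 24.7-fold in EGFP-negative cells.

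Psmc3ip was taken up by the rule for its name alone. It encodes a factor of meiotic recombination named for its binding to the product of PSMC3, and it is no subunit of the proteasome. It was listed at 0 in EGFP-positive cells and had 11.95 FPKM in EGFP-negative cells. Without it, 9 of 49 members were called lower.

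**Figure D3:**
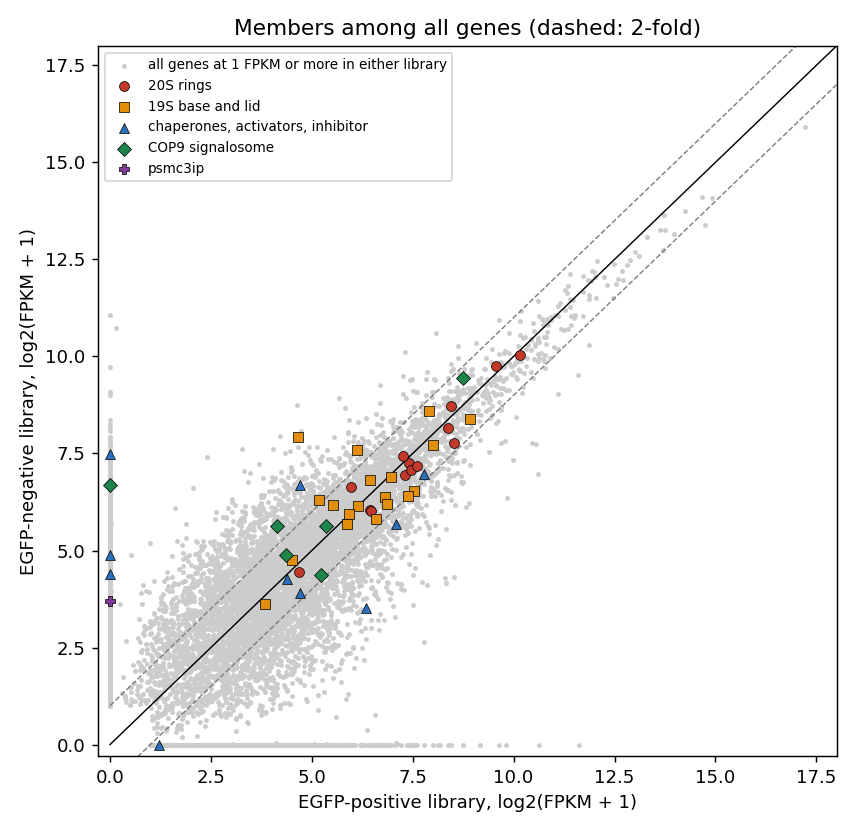
Level of all genes at 1 FPKM or more in either library as log2(FPKM + 1), EGFP-positive on the horizontal and EGFP-negative on the vertical axis, with the members coloured by subcomplex. The coloured 20S genes follow the diagonal within 2-fold, and 5 members, among them psmg3 and cops8, lie on the vertical axis at 0 FPKM in the EGFP-positive library.

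The spread of the differences of genes above 0 in both libraries was narrow in the 14 measured 20S ring genes that match the rule. Their SD over genes was 0.37. Psma2b, an alpha gene that the rule does not take, had a difference of 1.30 and is not in this SD. In the 19S base and lid the SD was 1.01 with psmd8 at -3.26 included, and in the base alone it was 0.78. Over all genes above 0 in both libraries it was 1.18. The interquartile range was 0.51 in the 20S rings, 1.00 in the 19S base and lid, and 1.38 over all such genes. Other constitutive complexes showed a similar range. The SD was 0.28 over 8 genes of the CCT chaperonin, which folds actin and tubulin, and 0.38 over 77 genes of cytosolic ribosomal proteins. It was 1.01 over 12 genes of the translation initiation factor eIF3, with eif3jb at 2.75 included. These are spreads over genes within a pair of libraries and not replicate errors. The sets also differed in level. Medians in EGFP-positive and EGFP-negative cells were 172 and 149 FPKM in the 20S rings, and 85.3 and 82.0 FPKM in the 19S base and lid. They were 640 and 475 FPKM for CCT, 824 and 846 FPKM for ribosomal proteins, and 170 and 165 FPKM for eIF3. Over all such genes they were 24.7 and 24.4 FPKM. The part of abundance in these spreads was not tested.

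**Figure D4:**
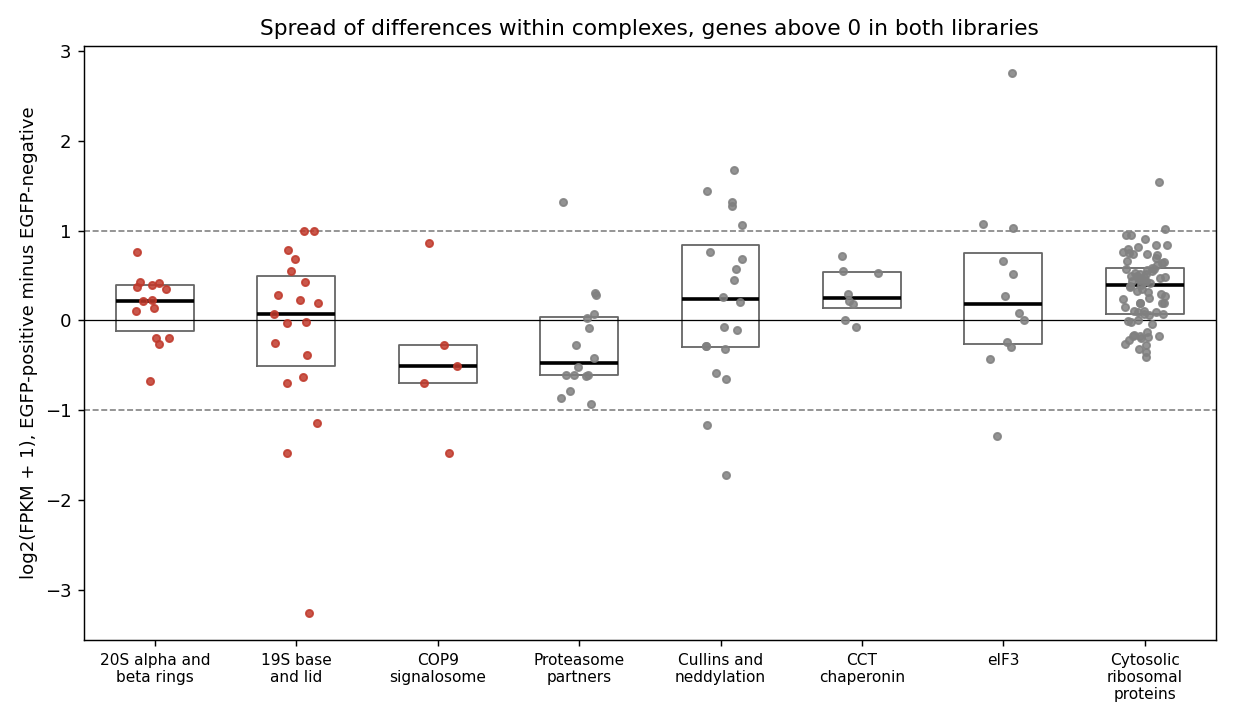
Difference in log2(FPKM + 1), EGFP-positive minus EGFP-negative, of each gene above 0 in both libraries, in proteasome and COP9 groups (red) and related lists (grey); boxes span the interquartile range, black lines are medians, and dashed lines mark 2-fold. Points of the CCT chaperonin and of the 20S ring genes that match the rule all lie within 2-fold. Each of the other groups plotted has a point or more beyond it.

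Genes that work with the proteasome were examined from a list of symbols. Of 16 partners 1 was called higher and none lower, where 22.9% of all genes were higher and 26.5% lower. All 16 were above 0 in both libraries, and of all such genes 17.8% were higher and 16.5% lower. Without rn7sk in the scale 2 of the 16 partners were lower, where 29.5% of all genes were. At a threshold of 1.5-fold 7 of the 16 were lower, where 34.5% of all genes were. Of the 16, 11 had a negative difference, and the median was -0.47. Zfand2a, an arsenite-induced proteasome partner in mammals, had 39.2 FPKM in EGFP-positive and 15.1 FPKM in EGFP-negative cells. The small lid subunit gene shfm1, now named sem1, had 402 FPKM in EGFP-positive and 767 FPKM in EGFP-negative cells. The ubiquitin receptor gene adrm1 had 130 FPKM in EGFP-positive and 138 FPKM in EGFP-negative cells. Usp14, a deubiquitinating enzyme bound to the base, had 10.02 FPKM in EGFP-positive and 14.8 FPKM in EGFP-negative cells. None of the last 3 was called.

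Ubiquitin itself was level. None of the 5 ubiquitin and activating enzyme genes was called, where 65.7% of all genes above 0 in both libraries were not. The polyubiquitin gene ubc had 2852 FPKM in EGFP-positive and 2793 FPKM in EGFP-negative cells. Among the segregase genes, which pull ubiquitinated proteins out of complexes, 4 of 8 were called lower and none higher, where 26.5% of all genes were lower. One of the 4, ubxn8, passed the filter only through its value in the EGFP-negative library, and 3 were called lower with a filter or a pseudocount of 5 FPKM. The median of the 8 was -0.82, and it was -0.47 for the 7 above 0 in both libraries, -0.39 with a pseudocount of 5 FPKM and -0.31 with no filter. The ATPase gene vcp was not among them, with 318 FPKM in EGFP-positive and 367.5 FPKM in EGFP-negative cells. All 4 were genes of the ubxn family of vcp cofactors. Ubxn1 had 58.8 FPKM in EGFP-positive and 263 FPKM in EGFP-negative cells, and ubxn7 had 34.0 FPKM in EGFP-positive and 78.0 FPKM in EGFP-negative cells. Ubxn6 had 2.93 FPKM in EGFP-positive and 12.6 FPKM in EGFP-negative cells. Ubxn8 was listed at 0 in EGFP-positive cells and had 1.44 FPKM in EGFP-negative cells.

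The cullins and the Nedd8 pathway are the substrates of the COP9 signalosome and the machinery opposed to it. Of 21 measured genes 6 were called higher and 2 lower, or 28.6% and 9.52%, with a median of 0.27. Of all genes 22.9% were called higher and 26.5% lower. Among the 20 above 0 in both libraries 5 were higher and 2 lower, where 17.8% of all such genes were higher and 16.5% lower. Cul4a had 33.2 FPKM in EGFP-positive and 11.6 FPKM in EGFP-negative cells, and cul5a had 57.3 FPKM in EGFP-positive and 23.1 FPKM in EGFP-negative cells. The ligase partner of the Cul5 protein, rnf7, had 218 FPKM in EGFP-positive and 103 FPKM in EGFP-negative cells, and the Nedd8-conjugating enzyme gene ube2f had 22.3 FPKM in EGFP-positive and 6.30 FPKM in EGFP-negative cells. Dcun1d4, a neddylation cofactor gene, had 36.5 FPKM in EGFP-positive and 13.98 FPKM in EGFP-negative cells. Its relative dcun1d2 had 14.1 FPKM in the EGFP-positive library and was listed at 0 in EGFP-negative cells.

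The lower genes of that list were cul3b, with 1.65 FPKM in EGFP-positive and 7.74 FPKM in EGFP-negative cells, and nae1, with 0.684 FPKM in EGFP-positive and 2.78 FPKM in EGFP-negative cells. Nae1 encodes part of the Nedd8-activating enzyme. Both values are low: 1 of the pair stayed lower with a filter of 5 FPKM, and none with a pseudocount of 5 FPKM. Nedd8 had 378 FPKM in EGFP-positive and 254 FPKM in EGFP-negative cells. The exchange factor gene cand1 had 67.7 FPKM in EGFP-positive and 73.0 FPKM in EGFP-negative cells. Neither of these was called. None of 3 measured F-box genes was called, where 65.7% of all genes above 0 in both libraries were not.

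Genes listed as transcription factors of proteasome genes, or as their regulators, were also examined. Of 10 measured, 2 were called higher and 1 lower, where 22.9% of all genes were higher and 26.5% lower. The lower one, nfyc, is listed at 0 in EGFP-positive cells. None was therefore lower among those above 0 in both libraries, where 16.5% of all such genes were. Keap1a, the adaptor that marks the stress factor Nrf2 for degradation, had 38.6 FPKM in EGFP-positive and 4.26 FPKM in EGFP-negative cells. Ngly1, the enzyme that in mammals and worms prepares Nrf1, the product of nfe2l1 genes, for activation, had 27.5 FPKM in EGFP-positive and 8.0 FPKM in EGFP-negative cells. The list also holds a row nrf1, which shares that name but is apart from nfe2l1a. It had 97.4 FPKM in EGFP-positive and 56.5 FPKM in EGFP-negative cells and was not called. Nfyc encodes a subunit of a CCAAT-binding factor and was at 0 FPKM in EGFP-positive cells, against 541 FPKM in EGFP-negative cells. Nfe2l1a, one zebrafish gene for the factor that induces proteasome genes, had 5.18 FPKM in EGFP-positive and 2.94 FPKM in EGFP-negative cells. Its relative nfe2l3 had 173 FPKM in EGFP-positive and 183 FPKM in EGFP-negative cells, and neither was called.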

How the data were processed

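The authors deposited FPKM values, fragment numbers scaled to gene length and library size, in a table of 14428 rows with 1 column per library; columns were matched by the sample descriptions. The submitters' processing notes name cutadapt, TopHat2 2.0.11, Cufflinks 2.2.1 and the build Zv9; for their options, the annotation and any scaling between libraries, the sources used here give nothing. FPKM carries no total count. Among 712 genes above 0 and below 6 FPKM in both libraries, no bin of 0.02 in log2 ratio held over 1.97% of them, so no steps of whole reads were found, depth is unknown, and counting intervals are not given.

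Differences are log2(FPKM + 1), EGFP-positive minus EGFP-negative, for genes that reached 1 FPKM in either library, and were called from 2-fold. The pseudocount of 1 FPKM understates differences of low genes. With 1 library per group there was no test. Every row of the rule may be named; of the related lists, genes called, genes listed at 0 in 1 library, and those that carry the list's role. The members and lists were chosen with earlier results of these data known. All 57 symbols were found in the reference gene tables, and no joined row named a member. Python 3.11.15, numpy 2.4.6 and pandas 2.3.3 were used. The arithmetic of the calls was checked on simulated data with exact folds in abundant genes and no noise. That check cannot measure errors from noise, low values or a 0 in 1 library. No sequence was used here, and the order of genes along a chromosome was taken from the reference table for 4 beta genes without printing its coordinates.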

Additional observations from a re-analysis of the deposited data

How the results depend on the processing

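Each choice was changed in turn under 8 planned settings and 2 chosen after seeing the data. The 3 members called higher became 5 with a pseudocount of 0.1 FPKM, which added psmd14 and psmd4b. At that pseudocount 24.1% of all genes were higher. At 1.5-fold 11 of the 50 members were higher and 14 lower, where 31.5% of all genes were higher and 34.5% lower. Without genes at 0 the 10 called lower became 5. Restricted to genes above 0 in both libraries, medians were -0.59 for the 19S chaperones, 2.11 for the psmg genes and 0.46 for the activators, against -1.98, 1.38 and 0.79 over all considered. Each restricted median rests on 2 genes, and that of the psmg genes leaves out psmg3, listed at 0 in EGFP-positive cells. The activators' median was 0.34 with a pseudocount of 5 FPKM, and 0.46 with no filter or one of 5 FPKM. Median levels of the activators became 119 FPKM in EGFP-positive and 71.6 FPKM in EGFP-negative cells, and in the EGFP-negative library those of the 19S chaperones became 58.5 and those of the psmg genes 30.6 FPKM. Of all genes, 26.5% were lower, against 16.5% above 0 in both libraries and 17.4% at a mean of 20 FPKM. Of 200 alternative values for single members, 183 moved by under 0.25 and none of the called ones changed sign. Part of these values come from rescalings that moved the median of all genes by -0.03 or -0.16, so most of them could hardly move by 0.25. A called difference could hardly change sign under these settings, so neither figure measures stability. No paired analysis was possible because each group has 1 library, and leaving out a replicate was not possible either. Depth is unknown, so the precision of low values cannot be given.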
